A study of Mus musculus with 4 samples.

Results

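The genes described here lie on mouse chromosome 5 within 10 Mb of Dao, the gene for D-amino acid oxidase, on either side of it. Members were chosen by position alone: every non-control probe whose mm9 start fell between 104475410 and 124475410 on chromosome 5, with the probes of Dao left out. This gave 792 of the 56605 probes of the array. They carried 504 of its 37008 gene names, of which 269 were gene symbols and 235 were clone, predicted or noncoding names. In all, 446 probes of 294 names were well above background on all 4 arrays and could be compared in both tissues. A further 237 probes were above background on no array.

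D-amino acid oxidase is a peroxisomal flavoenzyme that converts D-amino acids to keto acids, ammonia and hydrogen peroxide. The G181R form is known to have lost most of that activity, and it was first described in mice of the ddY stock. Genes close to a selected allele on the same chromosome are inherited with it when the allele is bred into another strain. From which stock the allele of these mice came, and through how many crosses, is not given in the sources used here. The neighbourhood of Dao holds families with known roles in the gut and in immunity, among them the guanylate-binding proteins (Gbp), GTPases that act on intracellular pathogens, and the 2'-5'-oligoadenylate synthetases (Oas), sensors of double-stranded RNA.

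All mice were on the C57BL/6J background, were 9 weeks old and carried null alleles of the beta and delta T cell receptor genes (Tcrbd-/-), the controls included. One genotype was DAOwt/wt (wild-type below) and the other DAOG181R/G181R (G181R below). Epithelium was scraped mechanically from jejunum or ileum, and each of the 4 groups was 1 pool of RNA from 5 mice on 1 array. With 1 array per group there was no replicate, so no difference within a tissue could be tested. The difference shared by both tissues could only be fitted, with tissue as a block and 1 residual degree of freedom, and that fit stands beside the counts. It treats the tissues of a genotype as separate samples, although they may come from the same mice. A gene is called different from a fold of 2. Values are given as processed signal in the order wild-type then G181R, first for jejunum and then for ileum. Differences are log2 G181R minus wild-type after scaling each array to its 75th percentile.

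The only measured error was the spread between replicate spots of a probe on the same array. It gave a median SD of a log2 difference of 0.0563 in jejunum (295 probes) and 0.0569 in ileum (296 probes), which leaves out mice, pools and labelling. The tissue labels were borne out by Lct, the lactase gene, at 69630, 51730, 90.6 and 134, and by Fabp6, the ileal bile acid binding protein, at 11.2, 17, 179400 and 162700. Cd3e, a T cell marker, was still measured, at 276, 227, 205 and 217. Dao itself had a signal of 1309 and 1239 in jejunum and 157 and 144 in ileum at its brighter probe, a difference of -0.11 and -0.04, which says nothing of a change of 1 amino acid. In these bulk samples fewer cells of a type and less RNA per cell cannot be told apart.

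The array reads each gene through probes of 60 bases, and several of the largest genotype differences of the window were found at 1 probe of a gene and not at its others. The first 30 bases of some of the probes on which those results turn are therefore printed here, 5′ to 3′ and numbered from the 5′ end of the gene. Capitals mark bases that another probe of the same gene also covers.
Ssh1 probe 1: gctggccgtgcgcctagagagtgtctggac
Ssh1 probe 2: agaacacttgaaaagcccgtcgagggtAAA
Ssh1 probe 3: AAACAAAAGCTGACTAGCTTTCAGCTCTGT
Acacb probe 1: aagtgtgaacacagttgcctgaatggtctt
Acacb probe 2: aaacgaccatattcgacgtcctgcccactt
Acacb probe 3: cctgaccacttgggtgcgctgaagaggctg
Lrrc8d probe 2: gagtgtttacacattgcttgcctgcctaaa
Lrrc8d probe 3: actattcagcttaagtgaagtcatcactga
The next 4 are probes that were above background in 1 genotype alone, in both tissues.
Pde6b: ctgcaaaataacagaaaggagtggaaagca
LOC102642338: taagtgtaaccagtgtgttaaagccttttc
Zfp33b: ctgctggagctgaaattctccccattgatc
Gcn1 probe 1: tccagaaagaacctacaatcagaatgtgtt

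In jejunum, 7 probes of the window were at least 2-fold higher in G181R and 7 at least 2-fold lower, 2.98% of the 470 measured. Over all probes of the array the share was 1.42%, with 0.675% higher and 0.741% lower. In ileum, 10 window probes were higher and 15 lower, 5.30% of 472, against 4.67% over all probes (1.81% higher and 2.85% lower). The ileal share was thus close to that of the whole array. The median difference of the window was -0.001 in jejunum and 0.04 in ileum, so the region as a whole was not shifted.

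Differences of the same direction in both tissues were found at 7 of the 446 probes measured in both (1.57%), 4 higher and 3 lower in G181R. The share over all probes was 0.517% (0.347% higher, 0.170% lower). On the rest of chromosome 5 it was 0.350%, at 5 of 1428 probes. Among the other chromosomes the share ran from 0.0935% on chromosome 14 to 0.701% on chromosome 2, so that of the window lay above each of them. Each of those chromosomes held more measured probes than the window, and stretches of like size on them were not counted. Counted by gene name, 7 of 294 names (2.38%) had such a probe, against 0.701% of all names. At 1.5-fold, 25 window probes (5.61%) differed the same way in both tissues, against 3.03% over all probes and 3.43% on the rest of chromosome 5. Both tissues of a genotype came from mice of the same genotype and may be the same animals, which the labels do not state.

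A limma fit over the 4 arrays with tissue as a block, added after the values were seen, takes its error from how far the tissues disagree. At a Benjamini-Hochberg adjusted p under 0.05 it called 0 of the 446 window probes and 0 of all 30545, and the smallest adjusted p was 0.225. At an unadjusted p under 0.05 it called 93 window probes (20.9%), against 18.3% over all probes and 20.7% on the rest of chromosome 5. With limma's trend of the variance on the signal, 2 window probes passed, those of Rfc5 (1.75 ± 0.118, SE, adjusted p = 0.0379) and Thoc2l (-1.74 ± 0.121, adjusted p = 0.0414), and 34 of all probes did (0.111%). These p-values treat the tissues of a genotype as separate samples. If both tissues came from the same mice, the p-values leave out the spread between mice.

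Probes above background on 1 array of a tissue can enter with a bound, the fold against the lowest signal well above background on the dim array or the probe's own signal there, whichever is higher. With these bounds, a way of counting that was chosen after the values were seen, 15 of 500 window probes of 14 names (3.0%) were at least 2-fold different in the same direction in both tissues, 7 higher and 8 lower. The share over all probes was 0.604%, and on the rest of chromosome 5 it was 0.387%, at 6 of 1549 probes. At 6 of the 15, the probe was above background on both arrays of 1 genotype and on neither array of the other. The whole array held 19 such probes (0.0574%), so 6 of the 19 lay within 10 Mb of Dao, 1 on the rest of chromosome 5 and 12 on other chromosomes. The 6 need not be independent, since those of LOC102642338 and Zfp33b start close together, at 105011519 and 105012828.

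The 15 probes were not spread evenly over the window. The stretch below Dao held 11 of its 208 probes (5.29%), and the stretch above held 4 of 292 (1.37%). By distance on either side, the share was 3 of 71 probes (4.23%) within 1 Mb, 1 of 56 (1.79%) from 1 to 2 Mb, 1 of 102 (0.980%) from 2 to 5 Mb and 10 of 271 (3.69%) from 5 to 10 Mb. It did not fall steadily with distance. These counts include the bounds, a way of counting chosen after the values were seen. Among probes measured on all 4 arrays, 2 of 63 (3.17%) passed within 1 Mb and 0 of 51 from 1 to 2 Mb. From 2 to 5 Mb it was 1 of 93 (1.08%), and from 5 to 10 Mb 4 of 239 (1.67%). At 5 to 10 Mb, 3 of 87 measured probes below Dao passed (3.45%) and 1 of 152 above it (0.658%). A group of 5 of the 15, at Spp1, Pkd2, Thoc2l, LOC102642338 and Zfp33b, lay between 9.46 and 9.61 Mb below Dao. Of these, Pkd2, LOC102642338 and Zfp33b entered only through their bounds. In the 10 Mb beyond either edge of the window, 0 of 89 probes below and 0 of 114 above met the same criterion. The share over all probes was 0.604%, and stretches with so few probes cannot tell 0 from that share. These counts therefore do not show where the differences end.

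**Figure D1:**
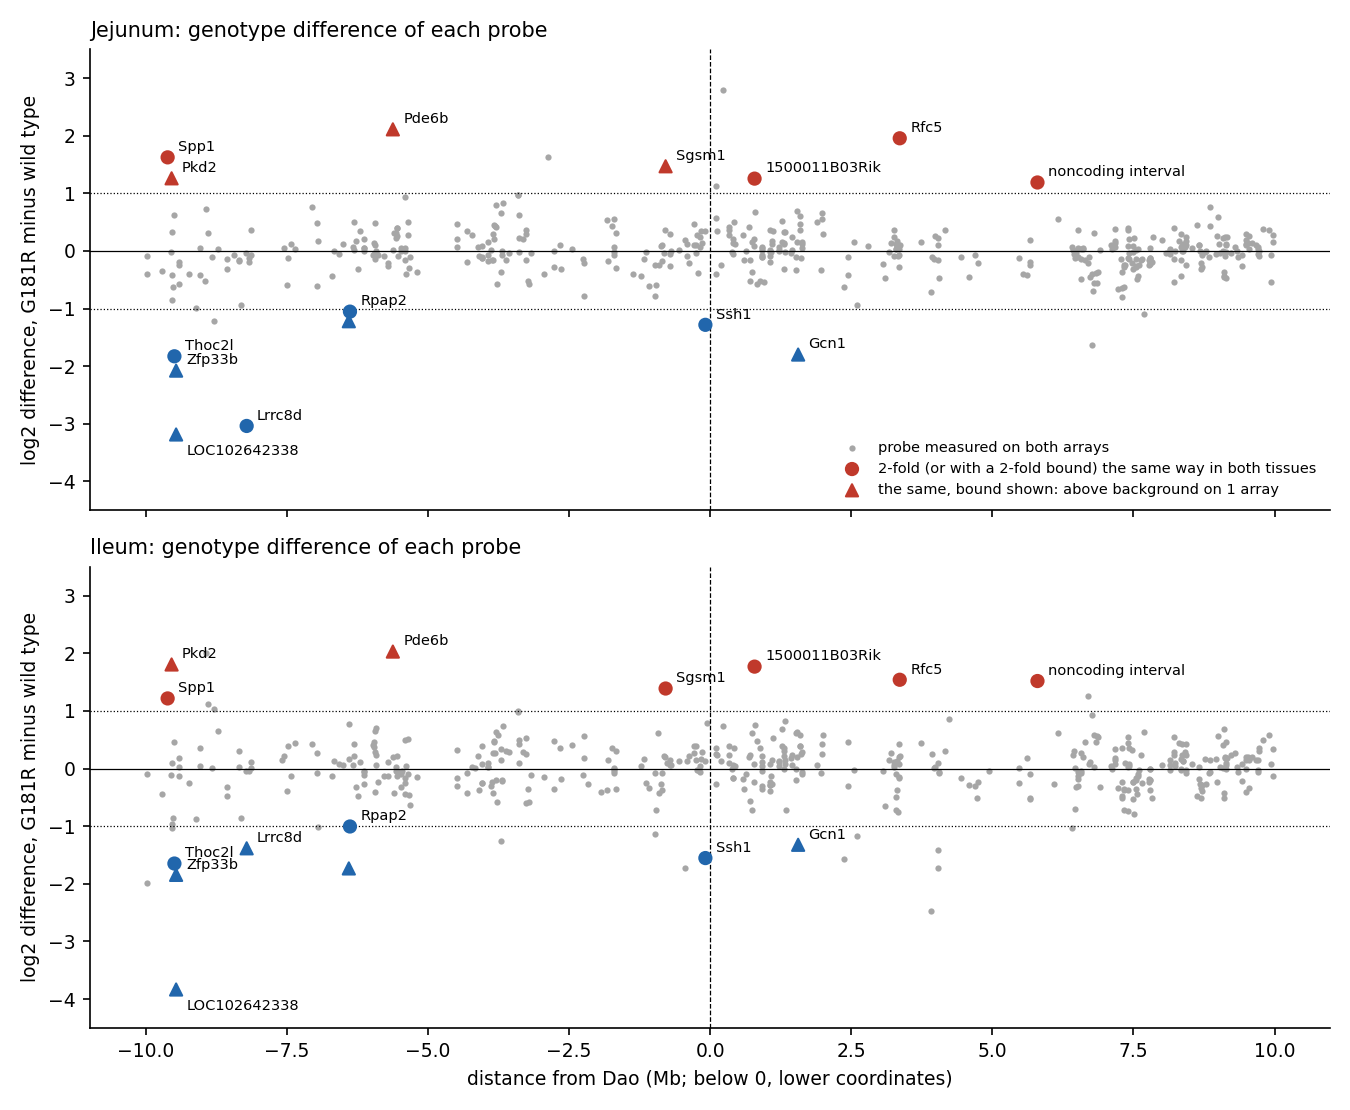
Log2 difference between G181R and wild-type (vertical axis) of each probe against its distance from Dao in Mb (horizontal axis), in jejunum above and ileum below; grey points are probes measured on both arrays, red and blue mark the 15 probes that were 2-fold higher or lower in both tissues, and triangles are bounds for probes above background on 1 array. The dotted lines stand at a fold of 2, and 11 of the 15 marked probes lie below Dao, 5 of them between 9.46 and 9.61 Mb from it.

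**Figure D2:**
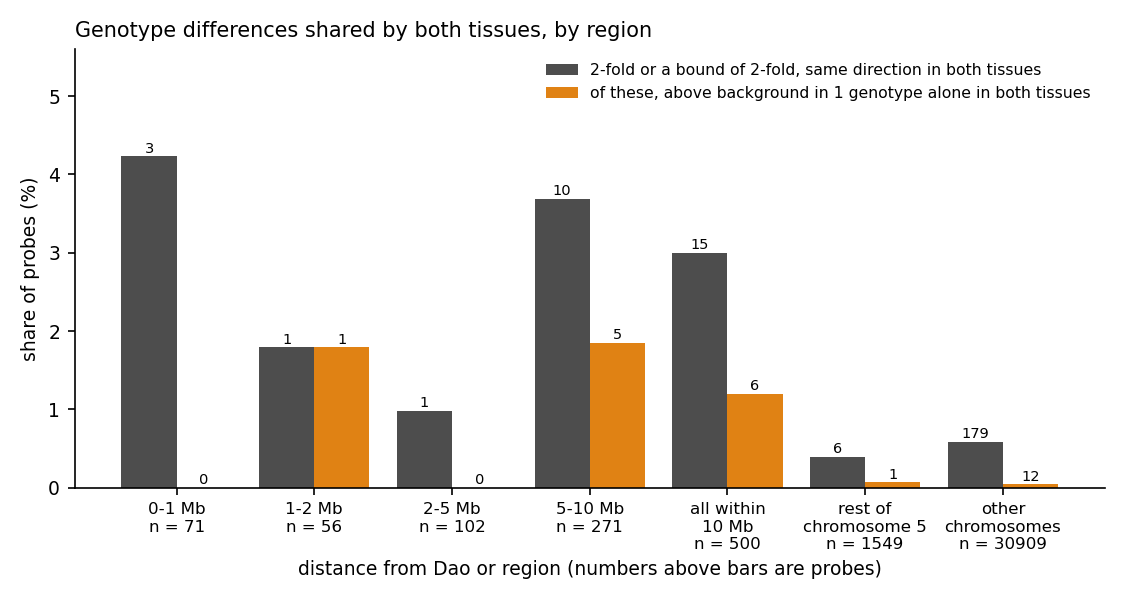
Share of probes (percent, vertical axis) that were 2-fold different, or had a bound of 2-fold, in the same direction in both tissues (grey), and of those above background in 1 genotype alone (orange), by distance from Dao and for the rest of the array; numbers above bars are probes. The window reaches 3.0% and 1.20%, the rest of chromosome 5 0.387% and 0.0646%, and the other chromosomes 0.579% and 0.0388%.

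Among the probes above background in 1 genotype alone, that of Pde6b, the beta subunit of the rod photoreceptor cGMP phosphodiesterase, had the highest bound among those higher in G181R. Its signal was 1.52, 32.5, 1.48 and 27.8, at a position 5.62 Mb below Dao. Both wild-type arrays lay at the floor and both G181R arrays above background, at least 4.32-fold higher in jejunum and at least 4.08-fold higher in ileum. It was the only probe of Pde6b in the window. The signals of G181R were low beside that of most measured genes.

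The predicted zinc finger gene LOC102642338 showed the reverse, with a signal of 51.8, 1.26, 92.0 and 2.36. It was at least 9.09-fold lower in jejunum and at least 14.3-fold lower in ileum. Zfp33b, a zinc finger gene, whose probe starts at base 105012828 against 105011519 for LOC102642338, gave 24.0, 3.49, 23.2 and 3.76. That was at least 4.22-fold lower in jejunum and at least 3.60-fold lower in ileum. Both had signal on the wild-type arrays alone. Zinc finger genes of this kind often have close relatives, and a probe may read more than 1 of them.

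Gcn1 encodes the partner through which the kinase Gcn2 senses uncharged tRNA. Its probe 1, annotated to an Ensembl transcript of the gene, gave 19.8, 1.59, 16.1 and 2.31, at least 3.48-fold lower in jejunum and at least 2.50-fold lower in ileum. The 3 other Gcn1 probes measured on all arrays differed by 0.37 to 0.60 in jejunum and by 0.40 to 0.59 in ileum, and the brightest of them read 2736, 3889, 3636 and 4541. So the lower signal at probe 1 stood beside slightly higher values at the other measured probes.

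Pkd2, which encodes the calcium channel polycystin-2, had a probe at 7.02, 18.0, 9.24 and 30.6, at least 2.40-fold and at least 3.49-fold higher in G181R. Another Pkd2 probe, at 45230, 45730, 43440 and 38210, differed by -0.02 and -0.11. One more, at 68.8, 52.8, 136 and 66.5, differed by -0.42 and -0.96. The probes of this gene therefore differed in both directions.

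Rpap2, an RNA polymerase II phosphatase, was the only gene with 2 probes among the 15. At one the signal was 63.0, 31.1, 110 and 51.9, a difference of -1.05 and -1.01. The other, at 13.3, 5.27, 21.4 and 6.09, was at least 2.33-fold lower in jejunum and at least 3.33-fold lower in ileum. Both Rpap2 probes, 6.38 and 6.40 Mb below Dao, were lower in G181R in both tissues.

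**Figure D3:**
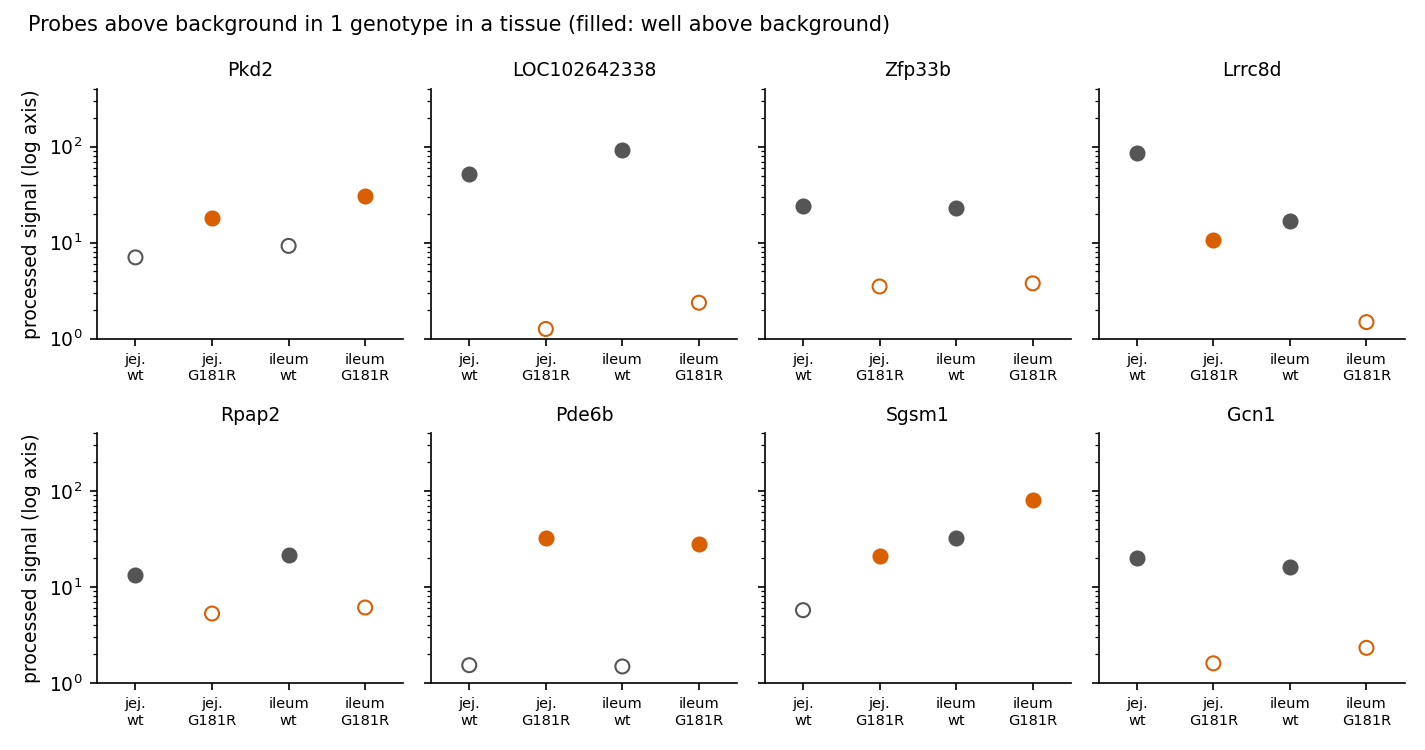
Processed signal (log axis) of the 8 window probes among the 15 that were above background on 1 array of a tissue, on the 4 arrays; filled points are well above background, open points are not. Pde6b and Pkd2 have signal on the G181R arrays alone, and LOC102642338, Zfp33b, Rpap2 and Gcn1 on the wild-type arrays alone, while Lrrc8d and Sgsm1 have it in both genotypes of 1 tissue.

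Rfc5, a subunit of the clamp loader of DNA replication, had the brightest probe that differed in both tissues. Rfc5 probe 2, 3.36 Mb above Dao, read 1687, 6696, 8621 and 23750. The difference was 1.96 in jejunum and 1.54 in ileum, and each G181R array was higher than the wild-type array of its tissue. Probe 1 of the gene gave 0.11 and 0.22, and probe 3 gave 0.09 and 0.42. The 2-fold difference was thus measured at 1 of 3 stretches of the gene.

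Ssh1 encodes slingshot, a phosphatase that activates cofilin and so the turnover of actin, and its nearest probe lay 0.0592 Mb from Dao. Ssh1 probe 2 read 23.9, 10, 20 and 6.44, a difference of -1.28 and -1.55. Ssh1 probe 3 starts 27 bases away and shares 33 of its 60 bases with probe 2. It read 21.3, 27.8, 21.1 and 21.9, a difference of 0.35 and 0.13. So G181R was lower in both tissues at probe 2 and in neither at probe 3. These signals are dim, and the 6.44 of G181R ileum lay close to 6.11, the dimmest signal that counted as above background there. Probe 1 was 0.79 higher in ileum and above background in G181R alone in jejunum.

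Acacb, the acetyl-CoA carboxylase of the mitochondrial surface, whose product malonyl-CoA slows the entry of fatty acids into mitochondria, held the highest measured difference of the window. Its probe 3, 0.225 Mb above Dao, read 47.8, 337, 181.2 and 285. The difference was 2.79 in jejunum and 0.73 in ileum, and the wild-type jejunum array alone was low. Probe 1 gave 0.35 and 0.24, and probe 2 gave -0.25 and 0.12. The higher jejunal signal of G181R was again found at 1 probe of 3.

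Lrrc8d, a subunit of volume-regulated anion channels, held the lowest measured difference in jejunum. Its probe 3 read 85.5, 10.7, 16.8 and 1.48, a difference of -3.04 in jejunum and at least 2.61-fold lower in ileum. Probe 1 gave -0.93 and -0.86. Probe 2, the brightest at 1996, 1984, 1403 and 1291, gave -0.04 in both tissues. The 3 probes differed in size, and none was higher in G181R.

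The transcript that the array names D930016D06Rik, a synonym of Thoc2l in the RefSeq gene table, had a probe at 175, 50.6, 270 and 81.7. It was lower in G181R by 1.83 in jejunum and 1.65 in ileum on the log2 scale. A second probe gave -0.85 and -1.04, and a dimmer one gave 0.63 and 0.47. The noncoding transcript 1500011B03Rik, 0.788 Mb above Dao, had a probe at 27.3, 66.6, 39.8 and 128, a difference of 1.25 and 1.77. Its second probe, 4851 bases away, gave 0.21 and -0.24. Sgsm1, a modulator of small GTPases, read 5.71, 20.9, 32.4 and 80.4 at one probe, at least 2.77-fold higher in jejunum and 1.39 higher in ileum, while a brighter probe gave 0.36 and 0.20.

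Spp1, which encodes the secreted matrix and cytokine protein osteopontin, was read by 1 probe, at 21.1, 66.5, 17.7 and 38.9. Both G181R arrays were higher, by 1.62 in jejunum and 1.22 in ileum. A noncoding interval 5.80 Mb above Dao, read on the reverse strand, gave 53.8, 125, 130 and 354, a difference of 1.19 and 1.52. These 2 names rested on 1 measured probe each. Noc4l, a factor of ribosome assembly, stood at the threshold at both of its probes, with differences of 0.98 and 0.97 in jejunum and 1.0 and 0.99 in ileum.

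Disagreement between probes of the same gene was more frequent in the window than over the array, but this is not separate from the calls above. A gene with 1 called probe and others unchanged enters both counts. Rfc5, Ssh1, Thoc2l and 1500011B03Rik, called in both tissues, were among the disagreeing names of each tissue. In jejunum, 7 of the 99 names with 2 or more measured probes (7.07%) had probes whose differences were at least 1 log2 unit apart, against 151 of 6980 names in all (2.16%). In ileum the counts were 7 of 103 (6.80%) and 282 of 7116 (3.96%). The median spread between probes of a gene was 0.237 in the window against 0.186 over the array in jejunum, and 0.282 against 0.212 in ileum. Of the 7 names 2-fold different in both tissues, 4 had another measured probe, and in 0 of these did every probe pass.

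**Figure D4:**
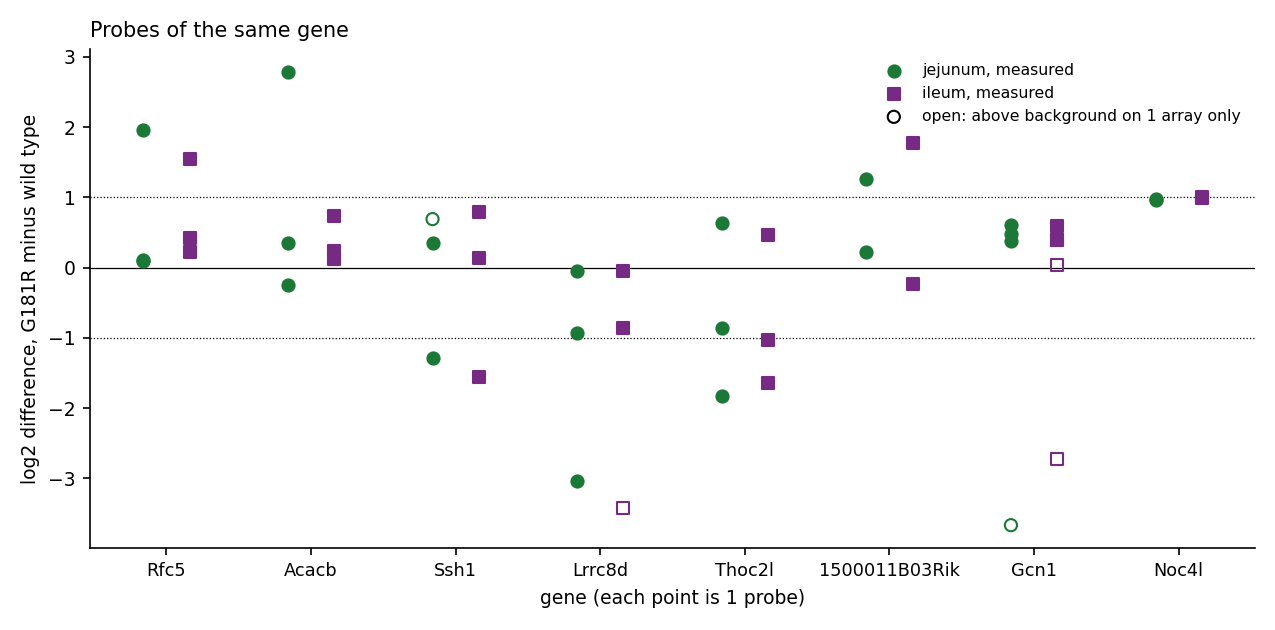
Log2 difference between G181R and wild-type (vertical axis) of each probe of 8 window genes, jejunum as circles and ileum as squares; open symbols are probes above background on 1 array of the tissue. Rfc5, Acacb, Ssh1, Lrrc8d, Thoc2l, 1500011B03Rik and Gcn1 have probes that lie apart from each other, whereas the 2 probes of Noc4l lie together near 1.

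Close to Dao, 47 probes of 32 named genes within 1 Mb were measured in jejunum and 49 probes of 31 genes in ileum. The median difference was 0.10 in jejunum and 0.11 in ileum. Under 0.5 log2 units in size were 38 of the 47 probes in jejunum and 41 of the 49 in ileum. The median absolute difference was 0.252 in jejunum and 0.201 in ileum, against 0.169 and 0.232 over all probes of the array. With clone and noncoding names included, 6.06% of measured probes within 1 Mb were 2-fold different in jejunum and 7.46% in ileum. Over all probes these shares were 1.42% and 4.67%. Besides Acacb and Ssh1, the largest value in jejunum was that of Alkbh2, a DNA dealkylase 0.0985 Mb above Dao, at 136, 305, 253 and 285 and a difference of 1.13 and 0.25. In ileum it was that of Wscd2, at 44.6, 52.4, 133 and 38.1, a difference of 0.20 and -1.72. Crybb3, a lens crystallin, gave -0.78 and -1.13.

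The lowest named gene of the window in ileum was Sparcl1, a secreted matrix protein, at 1129, 1090, 1423 and 341, a difference of -0.08 and -1.98. Tesc, a calcium-binding regulator of a sodium-proton exchanger, gave 0.10 and -0.15 at its probes in jejunum and -1.72 and -1.41 in ileum. Hspb8, a small heat shock protein, read 9.83, 6.55, 60.4 and 19.4, a difference of -0.62 and -1.56. P2rx2, an ATP-gated channel, gave -1.26 in ileum at one probe and 0.15 at its brighter one. Sparcl1, Tesc and Wscd2 were flat in jejunum, where each difference was under 0.25 in size. Whether the genotype difference itself differs between the tissues was not tested.

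The ileum wild-type array also stood high for smooth muscle genes. Of 10 listed markers, 9 were measured, and 9 of the 9 were lower in G181R ileum (46.7% over all names), with a median of -2.37. Among them 7 were 2-fold lower (3.21% over all names), while Acta2 gave -0.19 and Actg2 -0.34. The summed signal of the 10 markers was 18290 in wild-type and 7547 in G181R ileum, against 7749 and 8689 in jejunum. Myh11 read 106, 111, 367 and 59.9 and Cnn1 522, 579, 2300 and 422, so neither was at 0 on any array. Fibroblast markers were lower in G181R ileum too, at 5 of 5, with a median of -0.62 and signals that summed to 2386 and 1533. In jejunum 5 of 5 were lower (51.6% over all names), with a median of -0.26. The part of either cell type in the lower ileal values of Sparcl1, Tesc, Wscd2 and Hspb8 was not tested.

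Abcg3, an ATP-binding cassette transporter, was lower in both tissues and just under the threshold at its brighter probe, which read 59.1, 30.4, 20.5 and 10.6, a difference of -0.99 and -0.87. A dimmer Abcg3 probe was above background in wild-type jejunum alone, at least 5.12-fold lower in G181R. Atxn2, an RNA-binding protein, gave -1.09 in jejunum and 0.63 in ileum at its dimmest measured probe, so its sign differed between the tissues. Its 4 other measured probes lay between -0.24 and -0.13 in jejunum and at or below 0 in ileum. Dgkq, a diacylglycerol kinase, gave 0.94 and 0.50 at one probe and -0.01 and -0.25 at a brighter one. Fbrsl1 gave 0.83 and 0.74 at one probe and between -0.15 and -0.01 in jejunum at its 3 others. Gstm1, a glutathione transferase, read 10730, 5750, 740 and 313, a difference of -0.93 and -1.16. Its probe has a chromosome 5 position in the array files, whereas the RefSeq gene table puts the gene on chromosome 3, so it may not belong to the region.

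The genes of each list below were read at their brightest probe. Over all gene names so read, 0.764% were 2-fold higher and 0.745% 2-fold lower in G181R jejunum, and 2.0% and 3.21% in G181R ileum. By any amount, 48.4% were higher and 51.6% lower in jejunum, and 53.3% higher and 46.7% lower in ileum. The guanylate-binding proteins of the window comprised 6 genes. In jejunum, 6 were measured, 0 were 2-fold higher and 1 was 2-fold lower, with a median of -0.03. In ileum, 5 were measured, 2 were 2-fold higher and 0 lower, with a median of 0.65, against medians of -0.01 and 0.03 over all names. Gbp4 read 85.3, 144, 48.1 and 183, a difference of 0.72 and 2.01. Gbp6 read 134, 59.4, 35.2 and 68.6, a difference of -1.21 and 1.04, so it was lower in G181R jejunum and higher in G181R ileum. Over all probes measured in both tissues, 0.0196% were 2-fold different in opposite directions. Gbp11 gave 0.04 and 0.65, whereas Gbp8 and Gbp10 differed by at most 0.10 in size at their brightest probe in either tissue. A dimmer Gbp8 probe gave -0.42 and 0.35. Genes of this family resemble each other, and a probe may read more than 1 of them.

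The 2'-5'-oligoadenylate synthetases comprised 12 genes. In jejunum, 9 of the 11 measured were lower in G181R (51.6% over all names), 1 of them 2-fold (0.745%), with a median of -0.39. In ileum, 9 of the 10 measured were higher (53.3% over all names), 1 of them 2-fold (2.0%), with a median of 0.50. Oas1a read 13670, 10790, 5998 and 8269, a difference of -0.37 and 0.54. Oas2 read 2021, 1781, 354 and 801, a difference of -0.22 and 1.25. Oas1e read 295, 97.5, 4.72 and 7.25, a difference of -1.63 in jejunum, and its ileal wild-type signal was not well above background. The 2 that were not lower in jejunum were Oas1d, at 0.01, and Oas1b. The brightest probe of Oas1b gave 0.31 in jejunum and 0.58 in ileum, but its probes disagreed, and the other 2 gave -0.55 and -0.70 in jejunum. Members of this family too share sequence, so their values are not independent.

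**Figure D5:**
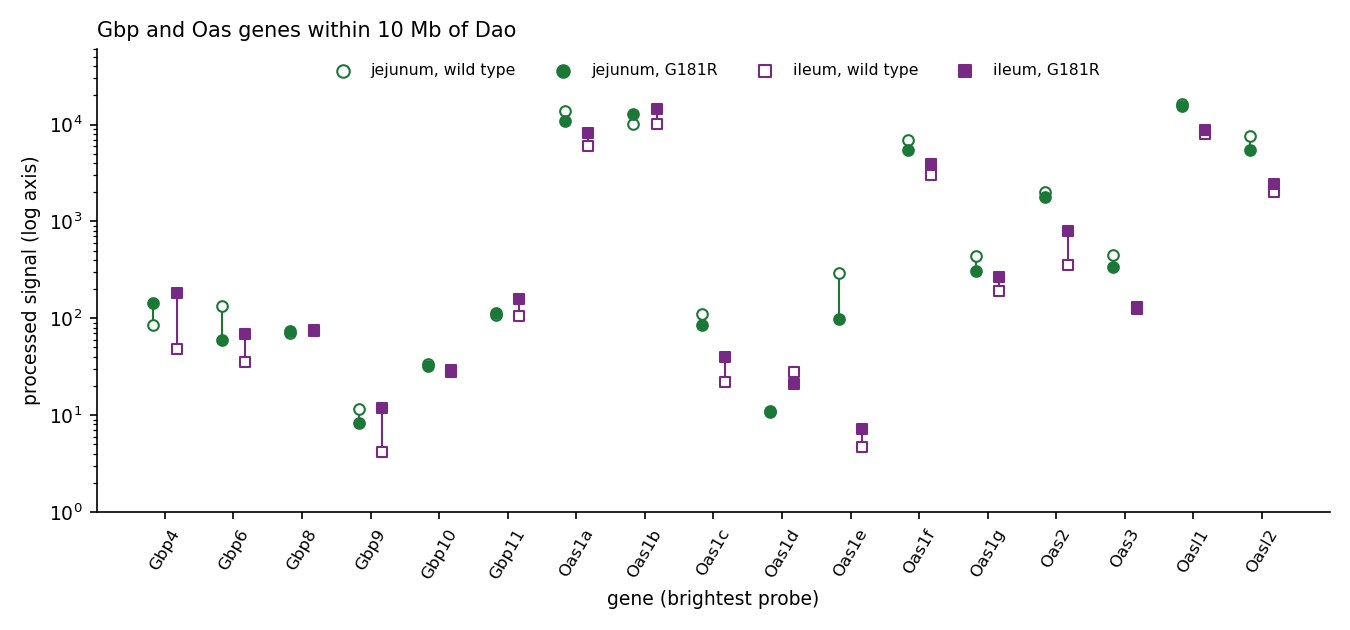
Processed signal (log axis) of the brightest probe of each measured Gbp and Oas gene of the window, jejunum as circles and ileum as squares, wild-type open and G181R filled. In ileum the G181R signal lies above the wild-type signal for 9 of 10 measured Oas genes, and in jejunum below it for 9 of 11.

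Listed interferon response genes elsewhere in the genome were mostly lower in G181R jejunum and higher in G181R ileum, as were the Oas genes. Over all names, 51.6% were lower in jejunum and 53.3% higher in ileum. The Gbp genes of the window were 3 higher and 3 lower in jejunum, and 5 of 5 measured were higher in ileum. Of these 5, Gbp8 at 0.049 and Gbp10 at 0.001 were under the ileal median spot SD of 0.0569. Of 10 type I interferon response genes outside the window, 10 were lower in G181R jejunum, with a median of -0.59, and 8 were higher in G181R ileum, with a median of 0.61. Their summed signal was 49920, 37430, 15090 and 15430 on the 4 arrays. Of 14 genes of the interferon gamma response outside the window, 12 were lower in jejunum (median -0.35) and 13 were higher in ileum (median 1.28), with a summed signal of 23990, 20390, 13390 and 20240. B cell markers had the same signs, with a median of -1.12 in jejunum over 4 genes and 0.77 in ileum over 5. Macrophage markers had medians of -0.14 in jejunum and 0.28 in ileum, with 1 of 3 higher in jejunum. T cell markers had medians of -0.31 and 0.16, with 1 of 3 lower in ileum. The neutrophil genes S100a8 and S100a9 were above background in G181R ileum alone, at 24.4 and 96.8. Ly6g, the other neutrophil gene listed, was above background on all 4 arrays, at 81.6, 91.9, 53.4 and 183. The part of immune cells in the Gbp and Oas values was not tested.

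Interferon drives Oas genes through a response element of their promoters, and the letters GAAANNGAAA, its core, were searched on both strands in the 250 bases before and 50 after each start in the RefSeq promoter table (GRCm38.p6). The motif was in 1131 of 32851 promoters (3.44%). The table held promoters of 8 Oas members of the window, and 4 had the motif, those of Oas3, Oas1c, Oas1g and Oas1a. Capitals mark the matches, overlapping ones joined, in the 120 bases before the start, which for Oas1a are chr5:120907526-120907645 on the minus strand, for Oas1g chr5:120887614-120887733 on the minus strand and for Oas3 chr5:120777660-120777779 on the minus strand. They are shown for 3 of the 4 genes with the motif.
Oas1a: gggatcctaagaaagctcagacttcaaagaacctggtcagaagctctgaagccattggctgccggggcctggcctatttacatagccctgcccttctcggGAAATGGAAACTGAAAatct
Oas1g: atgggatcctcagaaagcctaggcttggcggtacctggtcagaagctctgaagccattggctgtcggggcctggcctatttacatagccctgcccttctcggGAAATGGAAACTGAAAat
Oas3: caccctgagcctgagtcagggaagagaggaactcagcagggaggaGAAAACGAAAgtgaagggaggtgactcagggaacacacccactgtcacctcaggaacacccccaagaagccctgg
The differences of Oas1a, Oas1g and Oas3 were -0.37, -0.56 and -0.45 in jejunum and 0.54, 0.57 and 0.12 in ileum. Oasl2, whose promoter window lacked the letters, gave -0.52 and 0.36. A match is only a run of letters, and a missing match says nothing of other sites.

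Of 13 mitochondrial, amino acid and lipid enzymes, 12 were measured, 10 of them higher in each tissue. Over all names 48.4% were higher in jejunum and 53.3% in ileum. The median was 0.15 in jejunum and 0.12 in ileum, and 1 was past 2-fold, Acacb in jejunum (0.764% over all names 2-fold higher). Aldh2, which clears acetaldehyde, gave -0.25 and -0.36, and Cox6a1, a subunit of cytochrome c oxidase, gave -0.02 and 0.07 at a signal of 110200 in wild-type jejunum. Pgam5, a mitochondrial phosphatase, read 711, 1272, 1763 and 2592, a difference of 0.81 and 0.63. Coq5, of ubiquinone synthesis, gave 0.53 and 0.68. Mvk, mevalonate kinase, gave 0.12 and 0.04 at its brighter probe and 0.51 and 0.36 at a dimmer one.

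Among 7 genes of DNA repair and replication, 2 were 2-fold higher in jejunum (Rfc5 and Alkbh2) and 1 in ileum (Rfc5), against 0.764% and 2.0% over all names, with medians of 0.41 and 0.25. Pole, the catalytic subunit of a replicative polymerase, gave 0.65 and 0.33, and Ung, the uracil glycosylase, gave -0.41 and -0.27 at 5411, 4178, 7505 and 5896. Among 6 P2X receptor and calcium entry genes none passed 2-fold at its brightest probe, with medians of -0.18 and -0.26. Orai1, the pore of store-operated calcium entry, was the highest of them at 0.59 and 0.57. Of 10 transcription factors, 7 were measured in jejunum and 6 in ileum. Lhx5 was 2-fold lower in ileum alone (3.21% of all names were 2-fold lower there), at 29.2, 31.4, 22.9 and 10.6.

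Among genes with no probe above background in the dim group, other bounds lower in G181R were those of Mn1, at least 3.12-fold lower in ileum, Cplx1, at least 2.31-fold lower in ileum, and Dmp1, at least 2.12-fold lower in jejunum. These 3 were met in 1 tissue and not in the other. In jejunum the Mn1 probe was above background in G181R alone, at 8.10 in wild-type and 8.82 in G181R, at least 1.06-fold higher. Bounds under 2-fold were those of Gbp9, at least 1.74-fold higher in ileum, Zfp605, at least 1.68-fold higher in ileum, Spring1, at least 1.55-fold higher in jejunum, and Hcar1, at least 1.70-fold lower in jejunum. Of 61 window probes above background on 1 jejunum array, 10 had a bound of at least 2-fold lower (16.4%, against 8.65% over all such probes) and 3 of at least 2-fold higher (4.92%, against 4.74%). Of 52 in ileum, 9 had one lower (17.3%, against 12.2%) and 2 higher (3.85%, against 7.35%).

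Of the 446 probes, 41 (9.19%) were at least 2-fold different between ileum and jejunum in the same direction in both genotypes, 21 higher and 20 lower in ileum, close to the 10.4% over all probes. Hpd, an enzyme of tyrosine breakdown, was among the higher ones, at 27.4, 33.3, 145 and 155. The edges of the window were set by distance alone. Inside the lower edge, Nudt9 gave -0.40 and -0.09, and outside it Hsd17b11 gave -0.53 and -0.89. Inside the upper edge, Vps37b gave 0.27 and -0.13, and outside it Abcb9 gave -0.23 and -0.44.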

How the data were processed

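RNA of 4 groups (jejunum and ileum, DAO wild-type and G181R) was measured on 1 Agilent 1-colour array each. The authors deposited scanner output. Its processed intensity had been background-subtracted and detrended within each array by Agilent Feature Extraction 11.5.1.1, per the file headers. They also hold other values, per the file headers flags of 0 or 1 for signal well above background, saturation (0 window probes) and outlier spots. The deposited value table holds log2 values, of which 38 window probes carry 1 fill value per array, so it served only as an alternative. Spots marked as outliers were dropped, the log2 intensity of a probe's other spots was averaged, and each array's 75th percentile was subtracted. A probe counted as measured when well above background on both arrays. Between 57.4% and 60.4% of probes were above background on an array. Precision is limited by the number of arrays.

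Probe positions are mm9 as the files give them. Of the 792 window probes, 444 took their symbol through a RefSeq accession, 163 by symbol and 12 by a synonym in the GRCm38.p6 gene table, and 173 kept the array's name. Probe sequences are from the scanner files, and promoters are RefSeq's, in GRCm38.p6. No coordinates were converted between builds.

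The rule for the members used position alone, but it and the lists were chosen with earlier results of these data known. Named are genes 2-fold different in both tissues, the 8 highest and 8 lowest of each tissue, those within 1 Mb of Dao with the largest values, members of 6 lists, the 8 genes whose probes disagree most, and, among genes with no probe above background in the dim group, the 5 largest bounds each way, clone names passed over. Pkd2, Gcn1, LOC102642338 and Hpd were named after their values were seen. Python 3.11.15, pandas 2.3.3, numpy 2.4.6 and, for normexp and the fit with tissue as a block (lmFit and eBayes), R 4.3.3 with limma 3.58.1 were used. The counting and the fit were run on simulated data with planted 4-fold changes, well past the 2-fold threshold. The arrays simulated for the fit had no difference between tissues. These runs check the code and do not show how either performs on these arrays. Some members and sequences that these rules allow are not reported here.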

Additional observations from a re-analysis of the deposited data

Results flagged for a closer look

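Gbp6 had genotype differences of opposite sign in the 2 tissues. It was 1.21 lower in G181R than in wild-type jejunum on the log2 scale and 1.04 higher in G181R than in wild-type ileum, so the ileal difference exceeded the jejunal one by 2.25. Each value comes from 1 array per group, and the difference between the tissues was not tested.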

How the results depend on the processing

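The main counts were 14 window probes in jejunum, 25 in ileum, and 7 probes and 7 names in both tissues. Median centring and quantile normalization (14, 22, 6 and 6 each), the deposited table (14, 24, 7 and 7) and leaving out Gbp and Oas probes (12, 22, 7 and 7) kept each of them within 1.5 times. Normexp with an offset of 50, which shrinks dim probes by construction, gave 5, 8, 2 and 2. The share in both tissues was then 0.448% against 0.196% over all probes, and the 2 were Rfc5 and Thoc2l. Of the 6 probes above background in 1 genotype alone, none stayed past 2-fold in both tissues under normexp. With no filter on dim probes the counts were 69, 82, 19 and 18 (2.40% against 1.1%). A signal of at least 50 on both arrays gave 6, 9, 3 and 3 (1.06% against 0.428%, and 0.433% on the rest of chromosome 5). At 1.5-fold they were 48, 65, 25 and 23, and at 4-fold 2, 2, 0 and 0, where 8 of all 30545 probes passed. The mean over a gene's measured probes gave 3 names, and its brightest probe 5. Counting bounds, added after seeing the data, gave 15 probes and 14 names. Of 33 differences of named genes past 2-fold, 31 stayed past it under median centring, 31 under quantile normalization and 12 under normexp, and 32 of 32 in the deposited table. No sign turned among them. The limma fit with tissue as a block, added after seeing the data, called 0 window probes, and 2 with a trend. No paired analysis was possible because the groups share only 1 replicate number, and tissue was the block in its place. Most probes in these counts were dim, signals below 50 lie close to the background, and no array was repeated.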
